A study of Mus musculus with 4 samples.

Results

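RNA polymerase II (Pol II) peaks inside the bodies of very long genes are described here, in sorted brain endothelial cells (ECs) of 2 groups of mice. A peak belongs to the set when its summit lies in a protein-coding gene of 500 kb or more (mm10, GENCODE M21 basic annotation), more than 10 kb downstream of the gene's 5′ end and more than 3000 bp from every annotated transcription start site (TSS). Of the 389754 peaks called in the 4 libraries, 20041 met this rule, namely 3830 and 1771 in replicates 1 and 2 of old WT Cre (old 1 and old 2 below) and 1970 and 12470 in replicates 1 and 2 of young EC-K4KO (young 1 and young 2). They lie in 230 long genes of the 21938 protein-coding genes annotated. The old WT Cre group was 20 to 23 months old and carried the tamoxifen-inducible Cdh5-Cre transgene alone, which acts in cells that use the VE-cadherin promoter. The young EC-K4KO group was 4 to 6 months old and carried the same Cre with floxed Klf4 alleles. Both groups had received tamoxifen as young adults and are on the C57BL/6J background. Age and genotype therefore differ together and their effects cannot be told apart. The authors' methods call the ChIP-seq replicates biological, but the labels do not say whether the libraries of a group came from separate animals. A p-value here therefore measures only the spread between these samples, which may in part be technical. Chromatin was digested with MNase and precipitated with an antibody against Pol II, and a peak in such bulk chromatin cannot tell a few heavily occupied cells from many lightly occupied ones.

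Pol II that leaves a promoter must travel the whole gene to make a full transcript, and in genes of this size that takes many hours. Such genes consist almost entirely of intron. Many encode adhesion molecules and channels of neurons, and others encode receptor phosphatases, junction scaffolds and transcription factors that endothelial cells also use. Introns hold transposed elements and tandem repeats, copies of which can look alike to short sequencing reads.

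The libraries differed widely. The peak caller counted 65734178, 27455452, 35227929 and 22705175 fragments in old 1, old 2, young 1 and young 2, and the shallowest of them, young 2, has by far the longest list. Promoter peaks lay at 25.6, 24.5, 10.6 and 67.5% of all protein-coding genes in the same order. Of 8 endothelial markers (Cdh5, Pecam1, Cldn5, Flt1, Kdr, Tek, Slco1c1, Esam), 3, 3, 0 and 5 had a promoter peak, and Pecam1, Tek and Esam had one in no library. Of 4 neuronal markers (Rbfox3, Snap25, Syt1, Gad1), 0, 1, 0 and 4 had one, so young 2 carried promoter peaks of both cell types and young 1 of neither. Promoter peaks in the 4 libraries were found at 1, 0, 1 and 2 of 4 pericyte and smooth muscle markers, 2, 0, 1 and 2 of 4 astrocyte markers, 0, 0, 0 and 2 of 4 oligodendrocyte markers, and 2, 0, 0 and 3 of 4 microglial markers. The part of cell makeup in the results was not tested.

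Few places in long genes carried a peak in every library, and their sequence is shown first because most of them proved to be repeats. Merging overlapping peaks of the 4 libraries gave 17643 regions, of which 15765 had a peak in 1 library, 1516 in 2, 270 in 3 and 92 in all 4. The windows below are 201 bases of GRCm38 (mm10), plus strand, centred on the median summit of such a region. Capitals mark the longest run of letters that occurs again, either later in the same window or in one of the other 91 windows on either strand. The first 5 are among the 8 printable regions of best worst-case q rank. Dlgap1, Thsd7b and Mecom were chosen after their values were seen, as the leading window of a second repeated element, as the one exonic region and as an unmasked window in a gene of the endothelial list.
Mdga2 intron, chr12:67059309-67059509: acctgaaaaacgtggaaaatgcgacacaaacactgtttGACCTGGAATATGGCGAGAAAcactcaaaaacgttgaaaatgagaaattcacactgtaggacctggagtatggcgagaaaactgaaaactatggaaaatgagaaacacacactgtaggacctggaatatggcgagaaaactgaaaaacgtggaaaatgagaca
Atrnl1 intron, chr19:58113404-58113604: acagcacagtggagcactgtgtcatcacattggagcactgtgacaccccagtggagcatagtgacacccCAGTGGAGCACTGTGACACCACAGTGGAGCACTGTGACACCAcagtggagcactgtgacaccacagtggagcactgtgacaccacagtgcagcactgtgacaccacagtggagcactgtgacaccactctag
Dlgap2 intron, chr8:14307130-14307330: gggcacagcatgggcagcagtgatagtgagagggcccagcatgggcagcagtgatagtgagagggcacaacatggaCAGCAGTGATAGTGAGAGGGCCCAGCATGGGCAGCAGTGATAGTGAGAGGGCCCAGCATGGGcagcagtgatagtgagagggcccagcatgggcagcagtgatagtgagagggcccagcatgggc
Cadps2 intron, chr6:23480817-23481017: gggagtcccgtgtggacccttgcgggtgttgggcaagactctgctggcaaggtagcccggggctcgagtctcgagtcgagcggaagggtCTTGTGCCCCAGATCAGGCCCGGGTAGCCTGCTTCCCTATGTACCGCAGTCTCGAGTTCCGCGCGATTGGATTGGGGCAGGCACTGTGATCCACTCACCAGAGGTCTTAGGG
Ptprd intron, chr4:76214386-76214586: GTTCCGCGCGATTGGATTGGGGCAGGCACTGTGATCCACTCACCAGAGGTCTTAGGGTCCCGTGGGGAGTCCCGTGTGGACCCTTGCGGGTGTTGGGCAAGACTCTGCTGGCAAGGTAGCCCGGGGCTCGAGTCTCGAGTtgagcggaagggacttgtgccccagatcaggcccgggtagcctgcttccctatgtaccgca
Dlgap1 intron, chr17:70229982-70230182: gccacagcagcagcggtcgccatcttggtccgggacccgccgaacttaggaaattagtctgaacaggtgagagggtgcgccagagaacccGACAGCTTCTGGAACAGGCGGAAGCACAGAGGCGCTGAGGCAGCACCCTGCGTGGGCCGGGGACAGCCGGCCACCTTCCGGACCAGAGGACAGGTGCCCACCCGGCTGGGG
Thsd7b exon, chr1:129595430-129595630: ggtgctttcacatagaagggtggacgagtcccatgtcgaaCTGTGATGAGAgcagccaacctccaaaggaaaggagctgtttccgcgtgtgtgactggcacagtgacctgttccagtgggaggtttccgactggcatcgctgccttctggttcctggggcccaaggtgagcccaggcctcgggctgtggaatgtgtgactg
Mecom intron, chr3:30385245-30385445: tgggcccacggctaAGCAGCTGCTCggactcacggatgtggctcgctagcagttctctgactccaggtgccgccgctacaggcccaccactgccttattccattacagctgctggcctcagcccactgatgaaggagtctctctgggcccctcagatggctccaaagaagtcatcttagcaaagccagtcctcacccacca

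The Mdga2 window, in an intron of a neuronal immunoglobulin-superfamily gene, is 83.6% soft-masked, that is, marked as repeat in the reference. It matches itself best when shifted by 58 bases (62.2% of letters equal). Its fold enrichment over local background, as the peak caller gives it for each library, was 31.5, 32.8, 35.4 and 32.4 in old 1, old 2, young 1 and young 2. A 63-base shift brings 90.6% of the letters of the Atrnl1 window into register, and its fold enrichment was 37.0, 35.4, 40.6 and 44.9 in the same order. The Dlgap2 window is not soft-masked, yet like the Atrnl1 window it is a tandem repeat. It had 96.4% of letters equal after a shift of 62 bases and fold enrichments of 20.3, 22.9, 18.9 and 21.4. The fold enrichment of each of these 3 regions was of like size in all 4 libraries, but the pileups, in fragments and not scaled for depth, were not. They were 4930, 2095, 1026 and 322 at Mdga2, 1025, 306, 817 and 625 at Atrnl1, and 224, 93, 194 and 156 at Dlgap2.

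The Cadps2 and Ptprd windows lie in introns of a gene for vesicle priming and of a receptor phosphatase at synapses, on different chromosomes, and share a run of letters. Their fold enrichments were 7.89, 9.70, 7.15 and 13.1 for Cadps2 and 7.70, 8.18, 8.29 and 14.7 for Ptprd. Of the 92 windows, 70 shared a run of 20 bases with another one. The largest set of windows linked in this way held 33 windows in 32 genes (Cadps2 and Ptprd among them), the next 27 windows in 25 genes (Dlgap1 among them) and the one after that 6 windows in 6 genes. Of all 92 windows, 81 were at least 50% soft-masked, 12 were tandem (at least 70% of letters equal after a shift of 5 to 100 bases), and 8 were neither tandem, nor shared, nor at least 50% soft-masked. Among these 8 are the Thsd7b window, on an exon of a thrombospondin-domain gene, with fold enrichments of 4.13, 6.34, 4.46 and 7.40, and the Mecom window, 162.7 kb into a transcription factor gene of blood and endothelium, with 3.38, 7.46, 4.78 and 6.14. The motif search below found no match in any of the printed windows.

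Copies of the repeated elements lay inside peaks far more often than other sequence of long genes did. The 20 letters most common in the first set, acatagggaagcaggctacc, occur 556 times in the eligible sequence of long genes on either strand. In old 1, old 2, young 1 and young 2, 34.9, 39.2, 30.4 and 70.1% of these copies were inside a peak, and 56 copies were inside one in all 4 libraries. For the second set (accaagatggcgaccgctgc, 624 copies) the shares were 25.8, 32.5, 16.4 and 67.3%, and for the third (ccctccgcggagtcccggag, 147 copies) they were 36.7, 39.5, 4.76 and 64.0%. Peaks covered only 0.551, 0.253, 0.245 and 1.47% of all eligible bases of long genes. These letters were chosen from regions with a peak in all 4 libraries, so a raised share is in part fixed by the choice. In young 1 the third element had the lowest share of the 3. The authors' methods name Bowtie2 in local mode for these reads and, for ChIP-seq, no filter on mapping quality. How reads with several possible positions were placed is not given in the sources used here, and its part in these peaks was not tested.

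**Figure D1:**
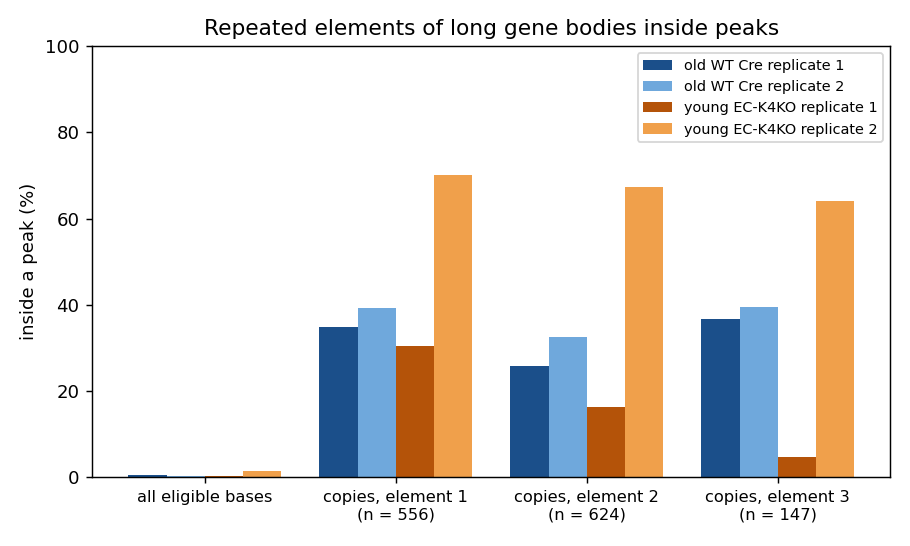
The bars give the percent of all eligible bases of long genes, and of the copies of 3 repeated 20-base runs in them, that lay inside a peak, one colour for each of the 4 libraries. Every library has a higher bar for each of the 3 runs than for all bases, from 4.76% of 147 copies (the third run in young 1) to 70.1% of 556 copies (the first run in young 2).

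Over the whole list, summits on masked repeats were more frequent in long genes than in shorter ones. The summit was soft-masked in 49.7, 60.2, 40.7 and 30.3% of long gene body peaks in old 1, old 2, young 1 and young 2, against 36.7, 40.5, 30.9 and 23.2% of peaks in the bodies of genes of 20 to under 500 kb. The difference was positive in 4 of 4 libraries, with a mean of 12.4 percentage points ± 5.45 (SD, n = 4, exact two-sided sign-flip test, p = 0.13, the smallest that 4 libraries allow). Soft-masked bases make up nearly equal shares of the sequence itself, 29.2% in long and 28.1% in shorter genes. Tandem windows were 8.54, 11.0, 3.25 and 1.64% of long gene body peaks and 0.594% of windows spaced evenly along the same sequence. In evenly thinned samples of 4291, 1942, 1525 and 6150 peaks of shorter genes they were 4.99, 8.39, 3.74 and 1.58%, so the share was higher in long genes in both old WT Cre libraries, lower in young 1 and nearly equal in young 2. Exons went the other way. Only 3.94, 4.97, 3.45 and 3.68% of long gene body summits were exonic, with the exact 95% binomial interval of each share reaching from 2.69 to 6.09% at most, against 12.2, 16.0, 11.1 and 13.2% in shorter genes (mean difference -9.09 points ± 1.50, SD, n = 4, exact sign-flip p = 0.13). Exons make up 1.17% of the eligible bases of long genes and 6.16% of those of shorter genes, so the exonic share of summits was above that of bases in both classes.

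The median fold enrichment of long gene body peaks was 3.94, 5.13, 4.23 and 4.79, against 3.91, 4.85, 4.14 and 4.79 in shorter genes (mean difference 0.10 ± 0.12, SD, n = 4, exact sign-flip p = 0.25, the smallest possible with 1 difference at 0). It was higher in long genes in 3 libraries and equal in young 2. A set of 4 motifs was searched on both strands of the 200 bases around each summit: KLF/Sp (GGGNGNGGC), AP-1 (TGANTCA), ETS (CCGGAAGT) and CRE (TGACGTCA). The KLF/Sp letters, of the kind bound by KLF4 and its relatives, were found in 3.60, 2.99, 4.67 and 4.53% of long gene windows, lower than in shorter genes in 4 of 4 libraries (mean difference -1.82 points ± 0.88, SD, n = 4, exact sign-flip p = 0.13), while evenly spaced windows held them in 1.58% in long and 2.78% in shorter genes. The AP-1, ETS and CRE letters were higher in long genes in 2 of 4 libraries each, with exact sign-flip p of 0.5, 1.0 and 0.625. AP-1 letters were found in 3.55, 2.94, 4.72 and 5.47% of long gene windows, below the 6.29% of evenly spaced windows. In shorter genes the 4.30, 3.44, 4.37 and 5.33% were likewise below the 5.75% of evenly spaced windows. ETS and CRE letters were more frequent in peaks than in evenly spaced windows, in both classes and every library. A match is a description and not a binding site.

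The next question was whether long gene bodies hold as many peaks for their size as shorter ones. They held fewer in every library. The eligible sequence of long genes came to 184.9 Mb and that of genes of 20 to under 500 kb to 605.4 Mb. Long gene bodies held 20.7, 9.58, 10.7 and 67.4 peaks per Mb (0.0207, 0.00958, 0.0107 and 0.0674 per kb) in old 1, old 2, young 1 and young 2, and shorter ones 35.4, 16.0, 12.6 and 102 per Mb. The ratio of long to shorter was 0.584, 0.597, 0.846 and 0.664, a mean log2 ratio of -0.59 ± 0.24 (SD, n = 4), or 0.665-fold (exact two-sided sign-flip permutation test, p = 0.13). It was lowest in both old WT Cre libraries and nearest to 1 in young 1. Peaks spread evenly over the ungapped bases of their own chromosome would put 5665, 2842, 2563 and 16920 peaks in long gene bodies, and the observed numbers were 0.676, 0.623, 0.769 and 0.737 of these (mean log2 ratio -0.52, exact sign-flip p = 0.13).

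**Figure D2:**
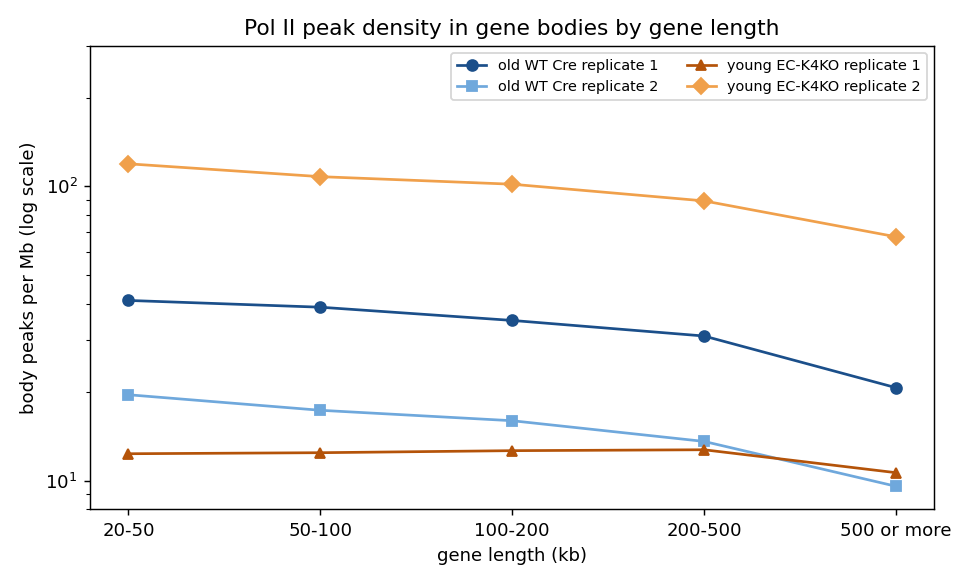
Body peaks per Mb of eligible sequence (log scale) are plotted against gene length class for each of the 4 libraries. In 3 libraries the density falls with each step in length, and in young 1 it stays between 12.4 and 12.7 per Mb up to 500 kb and then drops to 10.7.

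Base composition moved with this difference. Eligible sequence had a GC content of 40.1% in long and 42.9% in shorter genes, and 32.3% of long gene sequence lay in stretches of 5 kb below 38% GC, against 13.6% of shorter gene sequence. Within long genes the density rose steeply with local GC in old 1, from 6.43 per Mb below 38% to 52.1 per Mb at 44% and above. The like rise was from 3.18 to 23.1 in old 2, from 2.71 to 20.3 in young 1 and from 24.3 to 154 in young 2. With the densities of the 4 GC bins weighted as in shorter genes, an alternative added after seeing the data, the ratio of long to shorter became 0.878, 0.880, 1.18 and 0.954. The mean log2 ratio was then -0.05 (exact sign-flip test, p = 0.625), and the direction in young 1 turned. The part of base composition was not tested further.

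**Figure D3:**
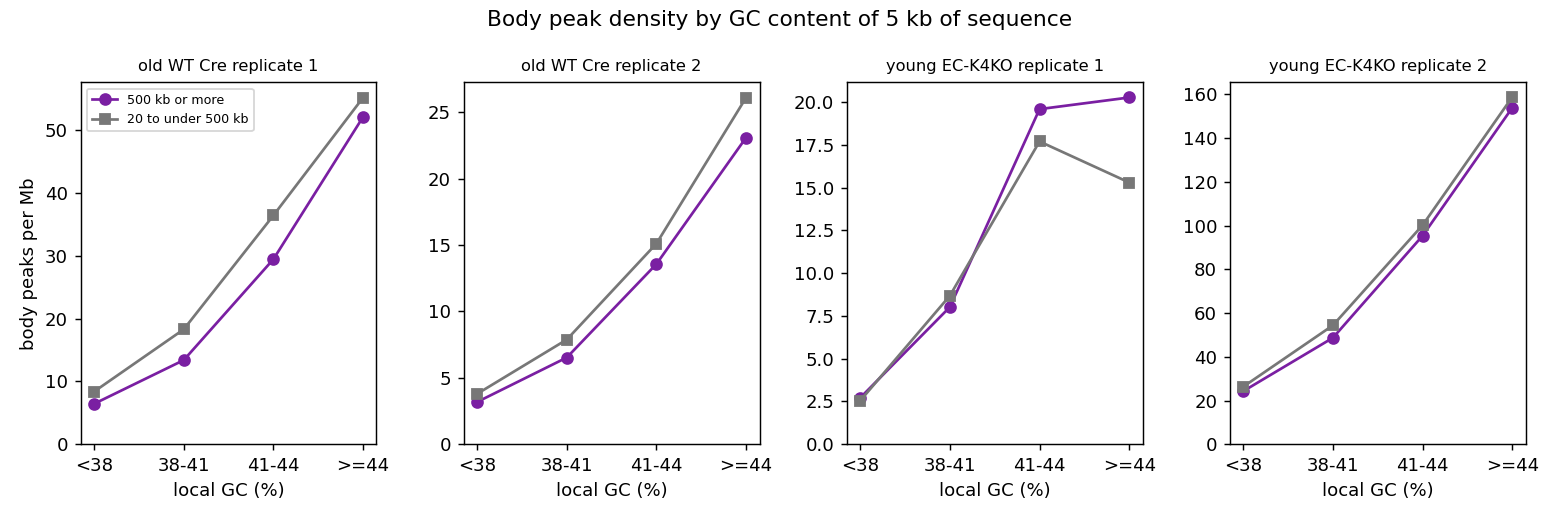
Each panel is 1 library and plots body peaks per Mb in genes of 500 kb or more and of 20 to under 500 kb by the GC content of 5 kb of local sequence. Density rises with GC in both classes in 3 libraries. In young 1 shorter genes fall from 17.7 to 15.3 per Mb in the last step while long genes reach 20.3.

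Along the gene, density was highest at the 3′ end, by a margin that differed between libraries. Each gene was cut into 10 bins of equal length, and in the last bin the density was 1.28, 1.26, 1.15 and 1.23 times that of all long gene bodies in old 1, old 2, young 1 and young 2. Over the rest of the gene the bins ranged from 0.908 to 1.04, 0.828 to 1.14, 0.871 to 1.15 and 0.920 to 1.04 times that level, so the last bin was the highest in each library, though in young 1 another bin held as many peaks (232 each). Genes with a promoter peak had a denser body. Of the 230 long genes, 98, 97, 53 and 191 had a peak no more than 1500 bp from a TSS, and body density with such a peak over that without was 1.25, 1.13, 1.16 and 1.41. In genes of 100 to under 500 kb the like ratios were 1.13, 1.10, 1.08 and 1.21. Over all protein-coding genes, promoter peaks lay at 25.6, 24.5, 10.6 and 67.5%. The GC content of genes with and without a promoter peak was not compared.

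Nearly every long gene carried body peaks. All 4 libraries had at least 1 in 224 of the 230 genes, and the other genes had them in 2 or 3 libraries. The median number per gene was 13, 7, 8 and 45. There were 6 gene models of this length that hold 5 or more other protein-coding genes. Gm20388 spans 71 and Fgfr2 29, and their counts include intergenic sequence. Peaks in overlapping long genes were counted for each gene, which added 38, 18, 22 and 120 counts to the gene totals. The 5 genes just over the length limit (Edil3, Dock1, Car10, Stpg2, Fgf13) together had 18.5, 7.13, 10.9 and 60.4 peaks per Mb, and the 5 just under it (Pde1c, Dnm3, Cacna1e, Abca13, Gabrb1) 19.3, 7.70, 14.6 and 57.8.

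To compare genes, each density was divided by that of all long genes in the same library. St6galnac3, a sialyltransferase gene (chr3:153198266-153725174), ranked first, with 32, 16, 8 and 68 peaks and relative densities of 3.20, 3.46, 1.55 and 2.09 in old 1, old 2, young 1 and young 2. Csmd2, a large membrane protein of synapses, had 31, 14, 11 and 99 peaks and a mean relative density of 2.44 ± 0.40 (SD, n = 4). Dlgap2, which encodes a scaffold of the postsynaptic density, had 40, 16, 19 and 104 peaks (2.43 ± 0.23). Both stood above 1 in every library. Dock2, an activator of Rac in blood cells, reached 2.38 ± 0.37 with 16, 9, 12 and 61 peaks. Wwox, a tumour suppressor gene at a common fragile site, reached 2.27 ± 0.30 with 44, 22, 18 and 128. The other genes among the 10 densest were Slit3 (guidance ligand), Thsd4 (extracellular matrix), Atrnl1 (attractin family), Rasgef1b (exchange factor for small GTPases) and Kalrn (exchange factor of dendritic spines), with means from 2.15 to 2.21. Their SDs over the 4 libraries ran from 0.23 to 0.97 and exceeded every step between neighbouring means, so neighbours in this order did not differ beyond their spread.

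The 5 genes of lowest density all lie on the X chromosome. Diaph2, a formin gene, had 1, 0, 0 and 10 peaks in 700.1 kb of eligible sequence. Il1rapl1, an organiser of synapses, had 0, 3, 0 and 30 peaks. Dmd, the dystrophin gene and at 2257 kb one of the longest, had only 4, 3, 4 and 29 peaks, a relative density of 0.148 ± 0.046 (SD, n = 4). Arhgap6 (a GTPase activator) and Aff2 (a nuclear protein) followed at 0.152 ± 0.13 and 0.154 ± 0.20. These genes were sparse in every library. The 12 X-linked long genes had mean relative densities from 0.0701 to 0.449 with a median of 0.229, while the 218 autosomal ones had a median of 1.01. GC content of the X-linked genes ran from 34.5 to 39.2%, and the 91 autosomal long genes up to 39.2% GC had a median of 0.643. The number of X chromosomes per cell is not given in the labels, and its part was not tested.

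Over all 230 genes, relative density followed GC content, with Pearson's r across genes of 0.815, 0.679, 0.600 and 0.930 in old 1, old 2, young 1 and young 2 (genes are not independent replicates and share the library). Between libraries r ranged from 0.541 (old 2 and young 1) to 0.872 (old 1 and young 2), so the highest value joined libraries of different groups. Old 1 and young 2 also had the most long gene body peaks, 3830 and 12470, against 1771 in old 2 and 1970 in young 1.

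Of the gene lists, transcription and RNA-binding regulators stood above the level of long genes in all 4 libraries, endothelial and vascular genes in 3, and synaptic genes, signalling enzymes and fragile site genes below it in all 4. The density of the endothelial and vascular list as a whole was 1.33, 1.21, 0.957 and 1.26 times that of all long genes in old 1, old 2, young 1 and young 2, and that of the synaptic list 0.684, 0.738, 0.804 and 0.748 times. The regulators reached 1.44, 1.24, 1.12 and 1.33 times, above the endothelial list in each library, and the 94 long genes in no list 1.19, 1.24, 1.17 and 1.16 times, so a raised level was not particular to endothelial genes. The lists overlap and are not independent. Every long endothelial gene but Cdh13 is also in another list, Foxp1 and Mecom among the regulators, the rest among the signalling enzymes and scaffolds. Among 10 long genes of the endothelial and vascular list, 7 were above 1 and the median was 1.20, against 110 of 230 and 0.969 over all long genes. Cdh13, which encodes T-cadherin of vessel walls, had 37, 19, 15 and 136 peaks (1.79 ± 0.28, SD, n = 4). Foxp1, a forkhead transcription factor, had 25, 6, 8 and 84 (1.75 ± 0.58). The receptor phosphatases diverged, with Ptprm, which holds endothelial contacts together, at 1.47 ± 0.37, Ptprg at 1.20 ± 0.066 and Ptprk at 0.418 ± 0.22. Pard3 (cell polarity) reached 1.30 ± 0.41, Mecom 1.19 ± 0.32 and Magi1 (junction scaffold) 1.14 ± 0.22. Lpp, a focal adhesion protein, had 17, 1, 4 and 37 peaks (0.834 ± 0.54), and Prkg1, the cyclic GMP kinase of vessels, 20, 11, 6 and 44 (0.716 ± 0.23). The median GC content of this list was 42.7%, above the 39.7% of all long genes.

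Synaptic adhesion and guidance genes formed the largest list, with 51 long genes, of which 13 were above 1 and the median was 0.637, at a median GC content of 37.8%. The range within the list was wide, from Il1rapl1 at 0.142 to Csmd2 at 2.44. Channels and receptors (19 genes) had a median of 0.908, transcription and RNA-binding regulators (15 genes) 1.19, signalling enzymes and scaffolds (43 genes) 0.959 and fragile site genes (20 genes) 0.909. The order of the medians was that of the median GC contents for the lists at either end, with 37.8% for synaptic genes and 42.7% for endothelial and vascular genes.

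**Figure D4:**
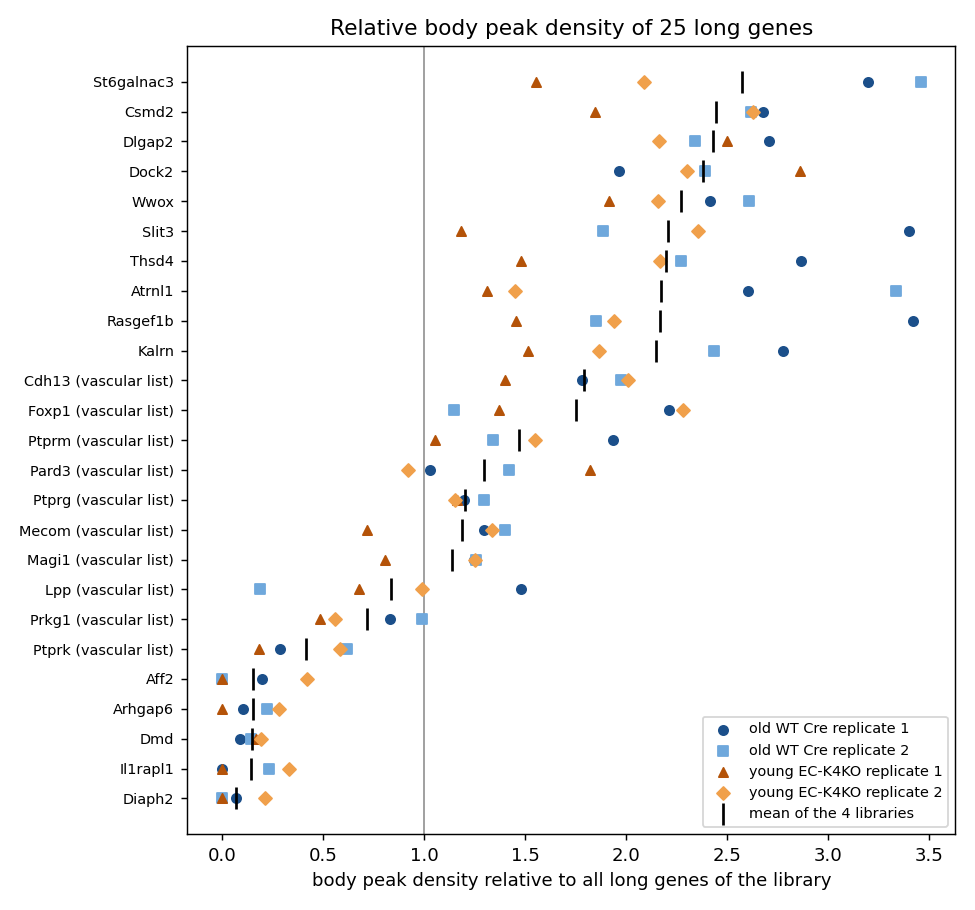
For the 10 densest and 5 sparsest long genes and the 10 long genes of the endothelial and vascular list, points give the body peak density in each of the 4 libraries divided by that of all long genes in the library, and bars give their mean. The sparsest genes stay below 0.5 in every library, and the 10 densest stay above 1 in every library.

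The groups were compared by the share of a library's peaks that lie in long gene bodies, which was higher in young EC-K4KO. The shares were 4.88% (exact 95% binomial interval 4.73 to 5.03) in old 1, 4.49% (4.29 to 4.70) in old 2, 5.59% (5.35 to 5.83) in young 1 and 5.30% (5.21 to 5.40) in young 2. The intervals cover counting error only. Group means were 4.69% ± 0.27 and 5.45% ± 0.20 (SD, n = 2 each), and the groups did not overlap. The difference of -0.76 points (old minus young) had an exact permutation p of 0.33, the smallest that 2 against 2 libraries allow. It shrank to -0.18 points with peaks of q at most 1e-05 (exact permutation p = 0.667) and to -0.21 with lists of equal length (exact permutation p = 1.0), and the groups overlapped under both. With soft-masked summits left out it grew to -1.57 points (exact permutation p = 0.33), with shares of 4.49, 3.43, 5.73 and 5.33%.

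Single long genes were then compared by their share of a library's peaks in gene bodies. In 75 of 230 long genes (32.6%) both young EC-K4KO libraries stood above both old WT Cre libraries, against 20.5% of all 1847 protein-coding genes tested, and in 15 (6.52%) both old WT Cre libraries stood above both young ones, against 13.7% of all tested. The first share is above its background and the second below. With each gene's share taken of long gene body peaks alone, a denominator added after seeing the data, the split was 44 (19.1%) to 40 (17.4%), so the excess towards young EC-K4KO went with the larger total share of long genes there. Single genes were not tested, since 2 against 2 libraries allow no exact permutation p below 0.33.

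The 5 genes of largest ratio towards young EC-K4KO include adhesion, channel and signalling genes. Cntnap5c, of the contactin-associated family of neuronal adhesion proteins, had 5 and 1 peaks in old WT Cre against 12 and 38 in young EC-K4KO, or 0.0198 and 0.00871% against 0.13 and 0.0514% of body peaks (log2 ratio of group means -2.63, old over young). Nrxn3, a presynaptic neurexin, had 8 and 1 against 8 and 59 peaks (log2 ratio -2.02), with shares of 0.0834 and 0.0798% that were nearly equal in the young libraries. Sorcs1, a sorting receptor of neurons, had 4 and 3 against 9 and 31 (-1.69). Ryr3, a calcium release channel, had 8 and 3 against 12 and 44 (-1.68), and Pde4b, which degrades cyclic AMP, 3 and 3 against 7 and 35 (-1.66). Each of these genes had 1 to 8 peaks per old WT Cre library, so counting error is large.

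Among genes with higher shares in old WT Cre, differences were smaller. Atrnl1 had 27 and 16 peaks in old WT Cre against 7 and 49 in young EC-K4KO, or 0.107 and 0.139% against 0.0730 and 0.0663% of body peaks (log2 ratio 0.82). Hdac9, a histone deacetylase, had 15 and 8 against 3 and 37 (0.67). Gpc6, a cell surface glypican, had 30 and 17 against 9 and 60 (0.61), St6galnac3 32 and 16 against 8 and 68 (0.60), and Prkg1 20 and 11 against 6 and 44 (0.52). Prkg1 was the one long gene of the endothelial and vascular list whose groups did not overlap. Of the 51 synaptic adhesion and guidance genes, 22 were higher in both young EC-K4KO libraries (Nrxn3, Nrg1, Nrg3, Erbb4 and Ptprd among them) and 4 in both old WT Cre libraries (Kirrel3, Nlgn1, Pcdh9, Tenm3). These counts, and those of the other lists, stand against 32.6% (young) and 6.52% (old) of all long genes and 20.5 and 13.7% of all genes tested, and no list was tested for a difference from them. The counts in the young and old directions were 8 and 0 of 19 channels and receptors, 4 and 1 of 15 transcription and RNA-binding regulators, 12 and 3 of 43 signalling enzymes and scaffolds, and 8 and 0 of 20 fragile site genes. The neuronal promoter peaks given above (0, 1, 0 and 4 of 4 markers) moved with these shares in young 2 alone. That library had a promoter peak at 67.5% of all protein-coding genes, and the part of cell makeup was not tested.

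**Figure D5:**
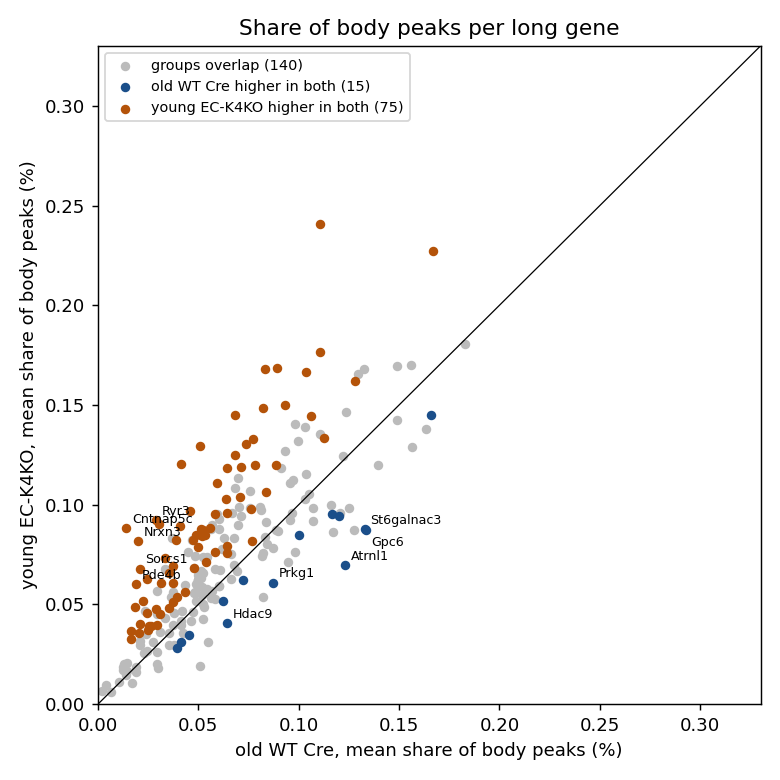
Each point is a long gene, with its mean share of body peaks (percent) in the 2 old WT Cre libraries on the x axis and in the 2 young EC-K4KO libraries on the y axis, and the line marks equal shares. Points coloured for young EC-K4KO (75 genes) lie above the line and those coloured for old WT Cre (15 genes) below it, and 2 genes, Fgfr2 and Gm20388, lie beyond the axes, which end at 0.33%. Fgfr2 is one of the 15, and the groups overlap at Gm20388.

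Peaks of long genes returned at the same place in another library more often than even placement gives. Of old 1 peaks, 13.8% overlapped a peak of old 2, against 0.506% for peaks placed evenly in long gene bodies. In shorter genes the overlap was 9.65%, against 0.795%, so the ratio to even placement was 27.3 in long and 12.1 in shorter genes. Between the young EC-K4KO libraries 24.0% of replicate 1 peaks overlapped one of replicate 2, against 2.97% if placed evenly, and in shorter genes 23.2% against 4.45%, which are ratios of 8.10 and 5.22. Recurrence was higher at masked summits. A peak of any other library was met by 39.5, 61.9, 44.9 and 19.8% of long gene peaks with a soft-masked summit in old 1, old 2, young 1 and young 2, and by 26.4, 36.3, 23.5 and 8.28% of the others. In shorter genes the shares were 32.05, 48.68, 41.71 and 15.76% at soft-masked summits and 26.45, 36.15, 28.39 and 10.49% at the others. At summits not soft-masked, long and shorter genes were thus nearly equal in old WT Cre, and long genes were lower in young EC-K4KO. Long gene peaks met in all 3 other libraries were 76, 76, 70 and 77 with masked summits and 10 in each library without. Peaks of old 1 overlapped one of young 2 more often (22.0%, against 3.20% if placed evenly) than one of old 2 (13.8%). Regions held by exactly 2 libraries numbered 289 for the old WT Cre pair and 257 for the young EC-K4KO pair, and those shared across groups numbered 568 (old 1 and young 2), 276 (old 2 and young 2), 97 (old 1 and young 1) and 29 (old 2 and young 1). The long list of young 2 takes part in the largest of these.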

How the data were processed

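Pol II was precipitated from MNase-digested chromatin of sorted brain ECs in 2 libraries per group. After trimming, the authors mapped reads to mm10 by Bowtie2, discarded duplicates and called peaks per library with MACS2, version 2.2.7.1 per the file headers, at a q of 0.01 without a control library. Deposited for each peak are the pileup (a coverage signal in fragments), the fold enrichment (a ratio over local background) and −log10 of the p-value and q-value, none normalized between libraries. The depth of a library is its fragment count, and its precision is limited by the number of peaks.

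Summits were assigned to gene bodies with numpy 2.4.6, scipy 1.17.1 and pandas 2.3.3 under Python 3.11.15, and sequence was read from GRCm38. Each base was counted once, and the bodies of long genes took precedence over shorter ones. Even placement was computed in closed form per chromosome. Genes compared between groups had at least 100 kb of eligible sequence and 8 body peaks. The steps were tested on simulated data. Genes named are the 10 of highest and 5 of lowest mean relative density, the 5 of largest ratio among non-overlapping genes in each direction and all long genes of the endothelial list, and regions were ranked by their worst q rank over the 4 libraries. The members, lists and tests were chosen with earlier results of these data known. The alternatives were other thresholds, distances, gene lengths, annotations and masks, and leaving out each replicate.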

Additional observations from a re-analysis of the deposited data

How the results depend on the processing

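The density of long gene bodies stayed below that of shorter genes and of even placement, as a mean over the libraries, under every alternative run. The mean log2 ratio to shorter genes ranged from -0.88 (bases and summits that are not soft-masked) to -0.44 (against genes of 200 to under 500 kb alone) under the alternatives chosen at the outset, and it was -0.05 after standardising to the GC of shorter genes. That to even placement ranged from -0.75 (genes of 1 Mb or more) to -0.38 (genes of 300 kb or more). Without each replicate in turn these ratios were -0.70 to -0.53 and -0.56 to -0.46. The difference in the share of long gene peaks, old minus young, kept its sign, from -1.57 points (not soft-masked) to -0.18 (q of at most 1e-05), and ran from -0.95 to -0.56 without each replicate. With a replicate block, labels were exchanged within replicate numbers and the difference was -0.76 points (exact permutation p = 0.5, the smallest possible). The numbers pair nothing that the labels name. Groups did not overlap in 90 of 230 long genes, where 13.7% (old higher) and 20.5% (young higher) of all genes tested did not. The 90 became 201 of 566 at 300 kb or more and 34 of 59 at 1 Mb or more, where other numbers of genes were counted, and were 78 to 91 of 217 to 230 genes under the other thresholds, list length, distances, autosomes alone, peak minimum and denominator. This count was not run without soft-masked bases, outside nested genes, with other gene models or without a replicate. Short lists limit single genes: in 3 libraries the median long gene had 7 to 13 peaks.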
